A study of Mus musculus with 28 samples.

Results

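The 10 genes described here are the core of the pathway that removes uracil from DNA: *Ung*, *Smug1*, *Tdg*, *Mbd4*, *Apex1*, *Polb*, *Xrcc1*, *Lig3*, *Parp1* and *Dut*. They were chosen by name for their place in the pathway and not by a measured value, although earlier results of these data were known by then. All 10 were found in both deposited data types, among 35928 gene symbols of one and 24845 gene rows of the other. Their levels were compared between A3B mice and controls in liver, pancreas and lung.

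APOBEC3B (A3B) is a cytosine deaminase, so it turns cytosine into uracil, and uracil in DNA is cut out by base excision repair. A DNA glycosylase first removes the base, an endonuclease then opens the strand at the empty site, and a polymerase, a scaffold protein and a ligase fill and seal the gap. A separate enzyme keeps dUTP out of the nucleotide pool, which limits how much uracil enters DNA during synthesis. Cells that divide need this pathway during replication as well, and several of its genes are known to be more active in dividing cells.

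The mice carried a human *A3B-tGFP* cDNA behind a tetracycline response element at the *Col1a1* locus, and A3B mice also carried the *CAGs-rtTA3* driver, which is active in many cell types and switches the cDNA on under doxycycline. Set 2 held livers of 6 A3B mice and 2 controls and pancreases of 6 A3B mice and 2 controls, all labelled with 10 days of food containing 625 ppm doxycycline. Set 1 held 3 livers and 3 lungs of A3B mice and 3 livers and 3 lungs of controls. In set 1 the A3B lungs and A3B liver 70 were labelled with 10 days, A3B livers 23 and 28 with 14 days, and all controls with 15 days. The study's text is not uniform on the controls: its methods have littermate controls on the doxycycline diet, another passage describes the control animals of the set 2 tissues as without it, and its animal table lists the set 1 controls as without it, apart from lung 87. Where controls had no doxycycline, the agent itself and transgene induction cannot be told apart. Control mice had the A3B transgene but no driver, except that lung 87 was labelled CAGs. The genotype labels went against the titles for 5 samples: A3B pancreases 44 and 137 were labelled as lacking the driver, and control pancreases 45 and 168 and control liver 11 of set 1 as carrying both transgenes. Groups were taken from the titles. Replicates were separate mice, the labels give no age, and 7 mice of set 2 gave both liver and pancreas.

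In set 1 the human *APOBEC3B* transcript was at 705 to 1705 TPM (a level corrected for transcript length and for the size of the library) in A3B livers and at 90.6 to 281 TPM in A3B lungs, against at most 0.526 TPM in any control. Estimated counts of set 2 totalled 65161064 to 118976013 per library. The labelled tissues showed their defining markers. *Alb* was at 19353 TPM or more in every set 2 liver, the summed acinar markers at 149830 TPM or more in every pancreas, and *Sftpc*, the surfactant protein C of alveolar cells, at 1422 TPM or more in every lung. Both control pancreases stood apart in composition, since 62.2% and 59.5% of their counts came from 10 genes, against 12.04% to 20.4% in the A3B pancreases. In bulk tissue, fewer cells of a type and less RNA per cell cannot be told apart.

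*Apex1*, the AP endonuclease that opens the strand after the base is gone, was the most abundant member in all 4 liver groups and in A3B pancreases. In control livers of set 2 it averaged 26.4 ± 3.38 TPM (SD, n = 2), and its values did not overlap those of the next gene, *Parp1*. Nor did they in A3B livers of set 1, whereas they overlapped the next gene in control livers of set 1, A3B livers of set 2 and A3B pancreases. In lungs *Parp1* ranked first, at 59.2 ± 11.7 TPM in controls (SD, n = 3), where its range overlapped that of *Dut*. In A3B lungs it averaged 39.2 ± 7.45 TPM (SD, n = 3) and did not overlap the next gene, *Xrcc1*. In control pancreases *Polb*, the gap-filling polymerase, ranked first at 8.83 ± 2.62 TPM (SD, n = 2), and its range also overlapped that of *Dut*. *Mbd4*, a glycosylase for uracil and thymine paired with guanine at CpG sites, was the lowest member in every group of set 2. *Tdg*, the other glycosylase for such mispairs, was listed at 0 in 10 of 12 samples of set 1 and reached at most 0.0891 TPM there. In set 2, however, *Tdg* was between 1.57 and 21.5 TPM. The 2 tables were made with different tools, so their levels were not tested against each other, and the reason for the *Tdg* values was not tested. *Mbd4* was also at most 0.316 TPM in every sample of set 1, and neither gene passed the set 1 filter of a mean of 1 TPM.

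**Figure D1:**
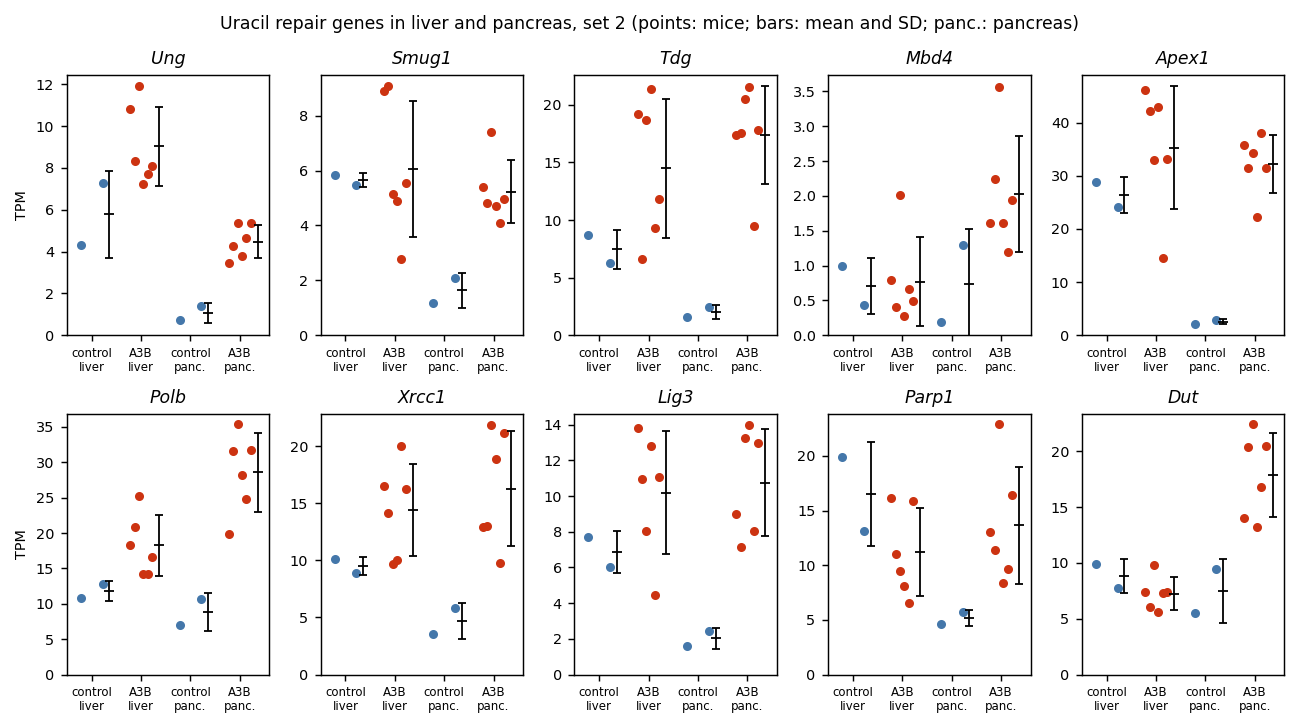
TPM of each gene in set 2 (vertical axis, linear, from 0) for control and A3B livers and pancreases, with 1 point per mouse and bars for mean and SD. In pancreas every A3B point lies above both controls for 9 of the 10 genes, the exception being Mbd4, as they do for 70.8% of all genes tested there, whereas in liver 9 of 10 genes overlap.

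The first question was whether the pathway responds in the liver. No member passed the test in either set. In set 2, edgeR called 0 of 10 genes at an adjusted p under 0.05, in a comparison where 3.66% of 17376 genes were called. At an unadjusted p under 0.05 it was 1 of 10, against 22.9% of all genes, and DESeq2 called 1. The median log2 fold change of the members was 0.00, against 0.21 for all genes.

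Among the glycosylases in set 2 livers, *Ung* (chr5:114130386-114139323, plus strand, build GRCm38), which removes uracil from single- and double-stranded DNA, was at 4.32 TPM in control 45 and 7.26 TPM in control 168. In the 6 A3B livers its lowest, median and highest values were 7.23, 8.23 and 11.9 TPM. The A3B values were mostly above the controls, and the groups overlapped. Its log2 fold change was 0.37 ± 0.34 (SE, adjusted p = 0.550). *Smug1* (chr15:103153290-103167092, minus strand), a second uracil glycosylase, was at 5.84 and 5.46 TPM in controls and ranged from 2.76 to 9.09 TPM in A3B livers, so the A3B group lay on both sides of the controls. *Tdg* (chr10:82629828-82650799, plus strand) was at 8.66 and 6.27 TPM in controls, and its lowest, median and highest A3B values were 6.58, 15.2 and 21.3 TPM. Its groups overlapped and its log2 fold change of 0.62 ± 0.34 had an adjusted p of 0.308. *Mbd4* (chr6:115840697-115853371, minus strand) stayed between 0.274 and 2.01 TPM in all 8 livers, and its SE of 0.62 was the widest of the members.

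Of the genes downstream of the glycosylases, *Apex1*, *Xrcc1* and *Lig3* gave log2 fold changes near 0 in set 2 livers. *Apex1* (chr14:50924968-50927139, plus strand) had 0.04 ± 0.34, *Xrcc1* (chr7:24546289-24573440, plus strand), the scaffold that holds polymerase and ligase, 0.01 ± 0.31, and *Lig3* (chr11:82781108-82804274, plus strand), the sealing ligase, -0.00 ± 0.27. *Polb* (chr8:22628126-22653435, minus strand) was at 10.8 and 12.8 TPM in controls and from 14.1 to 25.2 TPM in A3B livers, so its TPM did not overlap, and A3B values wholly above the controls in TPM were found in 24.3% of all genes. On the scaled counts its groups did overlap, and its log2 fold change was 0.28 ± 0.29 (adjusted p = 0.606).

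*Parp1* and *Dut* were the members that lay lower in A3B livers. *Parp1* (chr1:180568924-180601254, plus strand) encodes the enzyme that senses strand breaks and recruits XRCC1. It was at 19.9 TPM in control 45 and 13.1 TPM in control 168, and its lowest, median and highest values in A3B livers were 6.55, 10.2 and 16.2 TPM. On the log2 CPM scale, scaled by edgeR's trimmed mean of M values (TMM), the controls were at 5.59 and 5.91 and the A3B livers from 4.34 to 5.33. All 6 A3B livers were thus below both controls on that scale, although the groups overlapped in TPM. The log2 fold change was -0.99 ± 0.30 with an adjusted p of 0.0919 in edgeR and -1.07 with an adjusted p of 0.0342 in DESeq2. *Dut* (chr2:125247190-125258608, plus strand), the dUTPase that removes dUTP, had log2 CPM of 2.88 and 2.97 in controls and of 1.91 to 2.62 in A3B livers. These groups did not overlap either, and its log2 fold change was -0.66 ± 0.35 (adjusted p = 0.283). Values wholly below the controls were found in 2 of 10 members and in 12.9% of all genes. The hepatocyte markers lay lower in the same livers, with a summed TPM of 44437 to 114600 in A3B livers against 117360 and 174840 in controls, 1 of 15 markers called lower and none of the 15 at 0. Their part in these results was not tested.

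The livers of set 1 again gave 0 of 8 tested members called, by limma on log2(TPM + 1), where 7.93% of 11507 genes were called. Limma without its trend and robust settings also called 0 members, against 8.13% of all genes. At an unadjusted p under 0.05 the main fit gave 1 of 8 members, against 32.6% of all genes. The member in question was *Ung*. It was at 1.68, 2.69 and 3.33 TPM in controls 11, 91 and 92 and at 12.7, 6.34 and 6.22 TPM in A3B mice 23, 28 and 70. All 3 A3B livers were above every control. Its log2 difference was 1.36 ± 0.37 (adjusted p = 0.0592). Its groups were the only ones among the 8 members that did not overlap, and A3B values wholly above the controls were found in 28.5% of all genes. The median log2 difference of all genes was 0.39, and *Ung* stood 0.97 to 0.99 above that median under both scalings tried.

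For the other set 1 liver members the groups overlapped. *Parp1* was at 70.9, 40.6 and 49.2 TPM in controls and 28.1, 23.3 and 47.0 TPM in A3B livers. A3B livers 23 and 28 were below every control and A3B liver 70 was not. Its log2 difference was -0.72 ± 0.38 (adjusted p = 0.225). *Apex1* reached 54.6, 74.9 and 81.8 TPM in controls and 80.8, 50.4 and 51.4 TPM in A3B livers, and *Dut* 28.3, 44.6 and 37.4 TPM in controls and 26.2, 44.4 and 19.4 TPM in A3B livers. Neither gene separated the groups, with adjusted p of 0.661 and 0.552. For *Smug1*, *Polb*, *Xrcc1* and *Lig3* the adjusted p was between 0.516 and 0.725. The summed hepatocyte markers were at 10233 to 14392 TPM in A3B livers and 15735 to 16500 TPM in controls of set 1, with 1 of 15 called lower and none at 0, and their part was not tested.

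**Figure D2:**
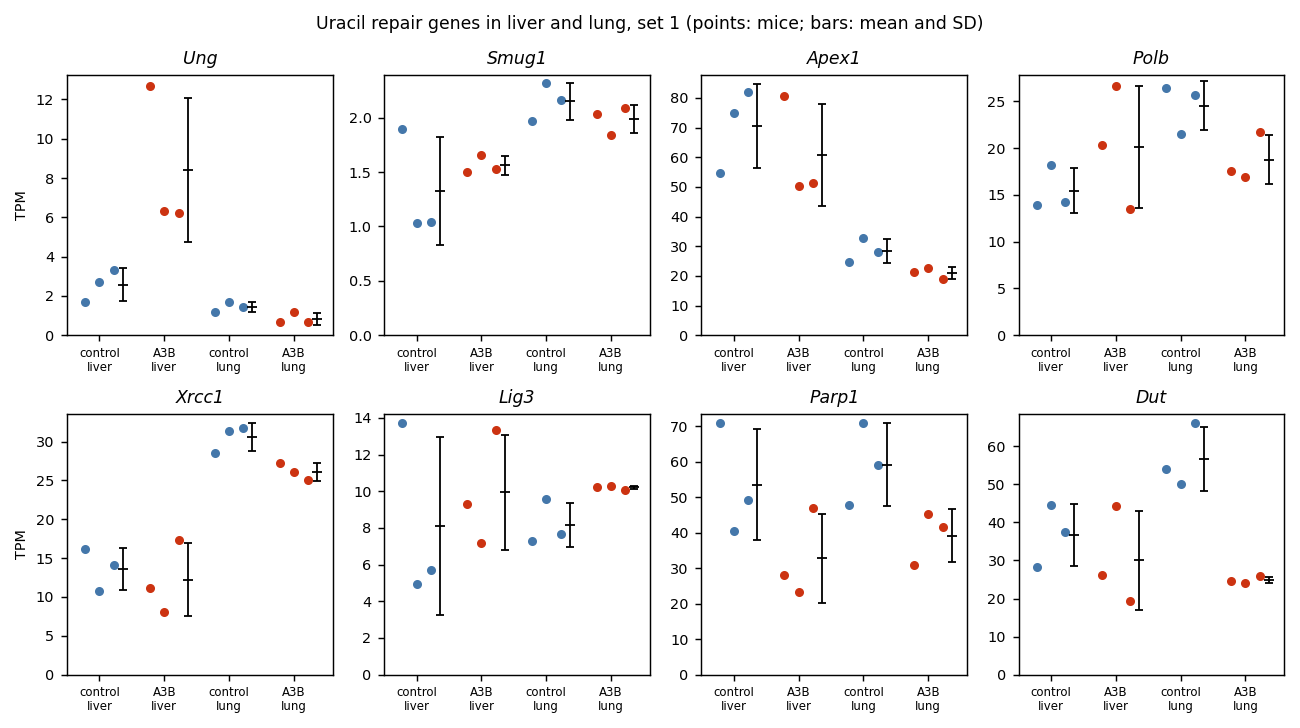
TPM of the 8 tested genes in set 1 (vertical axis, linear, from 0) for control and A3B livers and lungs, with 1 point per mouse and bars for mean and SD. Ung lies higher in all 3 A3B livers than in any control liver, and Dut lies lower in all 3 A3B lungs than in any control lung.

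In the pancreas, by contrast, edgeR called 4 of 10 members, where 31.9% of 19142 genes were called. *Tdg* and *Apex1* were higher in A3B pancreases, a direction in which 17.0% of all genes were called. *Smug1* and *Dut* were lower, as were 14.9% of all genes. The share of members called was close to the share of all genes. All directions here are relative to TMM scaling, in which the median gene had a log2 fold change of 0.09. The same median was 2.29 with counts scaled by their totals, 1.28 with library sizes that leave out the 10 most abundant genes and 1.75 on log2(TPM + 1). With total counts 9 members were called, all higher, as were 70.4% of all genes. With limma on log2(TPM + 1) all 10 were called higher, as were 83.9% of the 13597 genes tested that way. Every member was also higher in mean TPM in A3B pancreases, from 2.39-fold for *Dut* to 12.7-fold for *Apex1*, and the A3B values of 9 of 10 lay wholly above the controls in TPM, as did those of 70.8% of all genes.

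*Apex1* changed most. It was at 2.17 and 2.90 TPM in the control pancreases, and its lowest, median and highest values in A3B pancreases were 22.3, 32.9 and 38.03 TPM. Its estimated counts were 200 and 250 in controls and 1795 to 2910 in A3B mice. On the TMM scale the controls were at log2 CPM of 2.57 and 3.46 and the A3B pancreases from 3.92 to 4.77, so the groups did not overlap. The log2 fold change was 1.31 ± 0.32 (adjusted p = 0.0106), and *Apex1* stood 1.21 to 1.48 above the median gene under all 5 scalings. *Apex1* overlaps *Pip4p1* on the other strand, as *Tdg* overlaps *Glt8d2*, *Lig3* *Rffl*, *Polb* *Gm26909* and *Mbd4* *Gm44206*, and *Parp1* holds *Mir6904* on its own strand. The library kit was stranded per the study's methods, whether kallisto used the strand is not given in the sources used here, and the part of these genes was not tested.

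*Tdg* was at 1.57 and 2.47 TPM in control pancreases, and its lowest, median and highest A3B values were 9.47, 17.7 and 21.5 TPM. Its log2 CPM was 3.38 and 4.08 in controls and 4.20 to 4.98 in A3B mice, again without overlap. The log2 fold change was 0.90 ± 0.27 (adjusted p = 0.0266), and it stood 0.81 to 0.95 above the median gene under the 5 scalings. Without control pancreas 168 neither call held: *Tdg* then had an adjusted p of 0.176 and *Apex1* of 0.0743. Log2 CPM wholly above the controls was found in 2 of 10 members, *Apex1* and *Tdg*, and in 25.1% of all genes.

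*Smug1* and *Dut* were the members called lower on the TMM scale. *Smug1* had log2 CPM of 3.81 and 3.93 in controls and of 2.95 to 3.21 in A3B pancreases, which is a narrow range in both groups. Its log2 fold change was -0.78 ± 0.19 (adjusted p = 0.0115). *Dut* had log2 CPM of 4.07 and 4.55 in controls and of 2.92 to 3.58 in A3B pancreases, with a log2 fold change of -1.04 ± 0.23 (adjusted p = 0.00681). Neither gene overlapped between groups. In TPM, however, both were higher in A3B pancreases, *Smug1* at 4.11 to 7.41 TPM against 1.18 and 2.08 TPM and *Dut* at 13.3 to 22.5 TPM against 5.48 and 9.49 TPM. The log2 fold changes turned positive with total counts, at 1.44 for *Smug1* and 1.25 for *Dut*. They nonetheless stayed below the median gene under all 5 scalings, by 0.50 to 0.87 for *Smug1* and by 0.57 to 1.13 for *Dut*. Without control pancreas 45 neither call held, with adjusted p of 0.0770 and 0.0889.

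The other 6 members did not pass the test in the pancreas. *Polb* had log2 CPM of 4.58 and 5.14 in controls and of 3.83 to 4.50 in A3B pancreases. It did not overlap, and its log2 fold change was -0.62 ± 0.22 (adjusted p = 0.0537). DESeq2 called it lower, with an adjusted p of 0.0467. Log2 CPM wholly below the controls was thus found in 3 of 10 members, *Smug1*, *Polb* and *Dut*, and in 18.9% of all genes. *Parp1* had -0.82 ± 0.33 (adjusted p = 0.0800) with overlapping groups. *Ung* was at 0.708 and 1.38 TPM in controls and from 3.45 to 5.37 TPM in A3B pancreases, and its log2 fold change on the TMM scale was -0.23 ± 0.29 (adjusted p = 0.578). *Lig3* had 0.43 ± 0.27, *Mbd4* -0.36 ± 0.44 and *Xrcc1* 0.02 ± 0.24. The lowest estimated count of any member was 40, for *Mbd4* in control pancreas 45, against 311 in control 168.

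**Figure D3:**
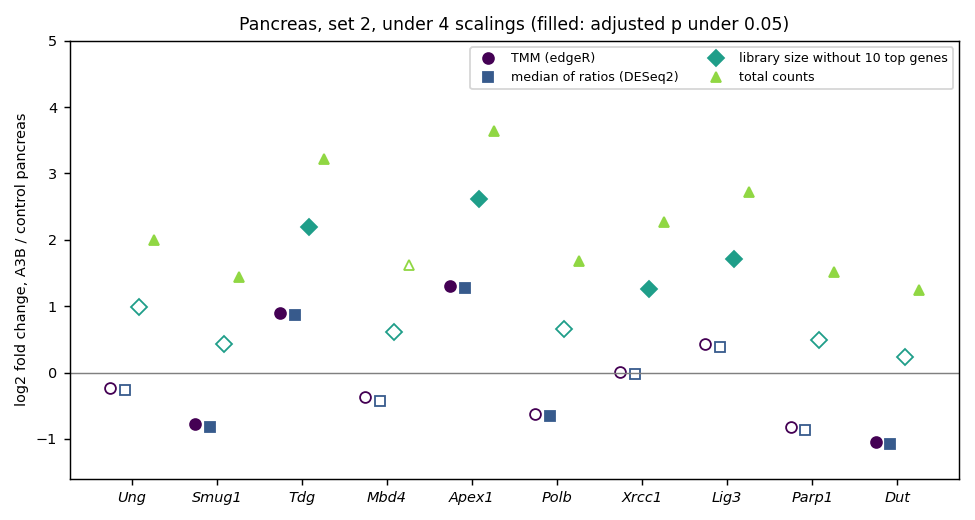
Log2 fold change of each gene in A3B against control pancreas (vertical axis) under 4 scalings of the estimated counts, with filled symbols for an adjusted p under 0.05. The symbols shift up together from TMM and median of ratios to total counts, while Apex1 and Tdg stay the 2 highest under each.

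Cell type markers moved with these results. The summed acinar markers were at 528870 and 551280 TPM in control pancreases and at 149830 to 328200 TPM in A3B pancreases, with 20 of 23 called lower, 1 higher and none at 0. The summed leukocyte markers were at 45.1 and 655 TPM in controls and at 1201 to 3656 TPM in A3B mice, with 4 of 20 called higher and none at 0. The most abundant of them alone averaged 265 TPM in controls and 1847 TPM in A3B mice. On the TMM scale only 8 of the 20 were positive, and their median log2 fold change was -1.20, against 0.09 for all genes. The summed ductal markers were at 153 and 207 TPM in controls and at 2203 to 4204 TPM in A3B mice, with 5 of 9 called higher and none at 0, and 7 of 8 fibroblast markers were called higher. Their part in the results for the 10 genes was not tested. Leaving out A3B pancreases 44 and 137, whose genotype label conflicts, kept the count at 4 members, 2 higher and 2 lower. In that fit 11.9% of all genes were called higher and 11.2% lower.

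An interaction term over the 16 samples of set 2 compared the A3B effect in pancreas with that in liver. edgeR called 0 of 10 members, where 11.9% of 19927 genes were called. At an unadjusted p under 0.05 it was 1 of 10 against 28.8% of all genes, and DESeq2 called 1. That member was *Apex1*, whose log2 fold change was 1.44 ± 0.47 larger in pancreas than in liver (adjusted p = 0.0552 in edgeR and 0.0437 in DESeq2). The other differences ran from -0.74 ± 0.35 for *Polb* to 0.59 ± 0.37 for *Lig3*. With total counts 6 members were called, all with the larger effect in pancreas, as were 39.4% of all genes. Livers and pancreases of 7 mice came from the same animals. With the mouse as a block 0 of 10 members were called, against 8.12% of all genes.

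In the lung, where the transgene was lower, 2 of 8 tested members were called by limma, both lower in A3B mice. The background was 36.8% of 13651 genes called in either direction and 20.8% called lower. The median log2 difference of the members was -0.39, against -0.06 for all genes, and 7 of 8 differences were negative.

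*Dut* had the largest difference of any member in the lung. It was at 54.0, 50.1 and 66.1 TPM in controls 87, 88 and 91 and at 24.7, 24.2 and 25.9 TPM in A3B mice 69, 70 and 74. The A3B lungs were close to each other and all below every control. The log2 difference was -1.15 ± 0.12 (adjusted p = 0.00290), which corresponds to a ratio of mean TPM of 0.439. It was called under every alternative and without each lung in turn, with adjusted p up to 0.0132. *Apex1* was at 24.5, 32.8 and 28.0 TPM in controls and at 21.3, 22.7 and 18.8 TPM in A3B lungs. It did not overlap, but its call was weak. The log2 difference was -0.42 ± 0.13 with an adjusted p of 0.0470, which was 0.0361 without control lung 87 and between 0.0734 and 0.123 without any other lung. The call was lost in 3 of the 4 other settings tried, at an adjusted limma p of 0.0691 with no filter on low values, 0.0582 with median-of-ratios scaling and 0.0506 without the trend and robust options, and was kept with a pseudocount of 0.1. With no filter a different second member, *Mbd4*, was called at -0.11 ± 0.03 with levels of at most 0.316 TPM, and with median-of-ratios scaling *Lig3* was called higher in A3B lung at 0.35, with an adjusted limma p of 0.0361. *Lig3* was also called higher without control lung 88, at 0.40 with an adjusted limma p of 0.0245.

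The other lung members had adjusted p between 0.0533 and 0.574. *Parp1* was at 47.7, 71.0 and 59.0 TPM in controls and at 30.8, 45.2 and 41.5 TPM in A3B lungs, all below the controls, with a log2 difference of -0.58 ± 0.19 (adjusted p = 0.0533). *Xrcc1* was at 28.5, 31.4 and 31.8 TPM in controls and at 27.2, 26.0 and 24.999 TPM in A3B lungs, a small gap with no overlap. *Ung* was at 1.17, 1.69 and 1.41 TPM in controls and at 0.658, 1.17 and 0.677 TPM in A3B lungs. Its highest A3B lung lay just below its lowest control, and its log2 difference was -0.41 ± 0.15 (adjusted p = 0.0706). *Lig3* was the one member that lay higher, at 7.29, 9.55 and 7.65 TPM in controls and at 10.3, 10.3 and 10.1 TPM in A3B lungs (adjusted p = 0.0815). *Polb* (adjusted p = 0.0637) and *Smug1* (adjusted p = 0.574) overlapped. Lungs wholly below the controls were found for 5 of 8 members and 30.6% of all genes, and lungs wholly above for 1 of 8 and 23.3% of all genes. Leaving out 1 lung gave 1 to 3 called members, where 21.9% to 33.7% of all genes were called. Without control 91 or A3B lung 69 *Dut* was the only member called, and without control 87 *Parp1* was called lower as well (adjusted p = 0.0385). Without control 88 *Lig3* was called higher (adjusted p = 0.0245) and *Polb* lower (0.0469), without A3B lung 74 *Polb* lower (0.0373), and without A3B lung 70 *Ung* lower (0.0446).

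Markers of other cell types were measured in the same lungs. The summed leukocyte markers were at 2118 to 2616 TPM in controls and 1632 to 2201 TPM in A3B lungs, with 2 of 19 tested called lower and *Ms4a1*, a B cell marker, at 0 in all. The summed endothelial markers were at 3536 to 3913 TPM in controls and 4531 to 5195 TPM in A3B lungs, with 1 of 6 called higher, 1 lower and none at 0. The most abundant of them alone averaged 2946 TPM in controls and 4156 TPM in A3B lungs. Only 2 of the 6 were positive, and their median log2 difference was -0.03, against -0.06 for all genes. The lung epithelial markers were at 20105 to 21484 TPM in controls and 19008 to 20619 TPM in A3B lungs, with 2 of 10 called lower and none at 0. The summed hepatocyte markers ran from 33.2 to 1096 TPM in control lungs, with a median of 95.3 TPM. In A3B lungs they ran from 49.6 to 1064 TPM, with a median of 949 TPM. Lungs of both groups thus held liver transcripts, but unevenly. Of the 15 markers 14 were positive and none was called, and their median log2 difference was 1.21, against -0.06 for all genes. Their part in the results was not tested.

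**Figure D4:**
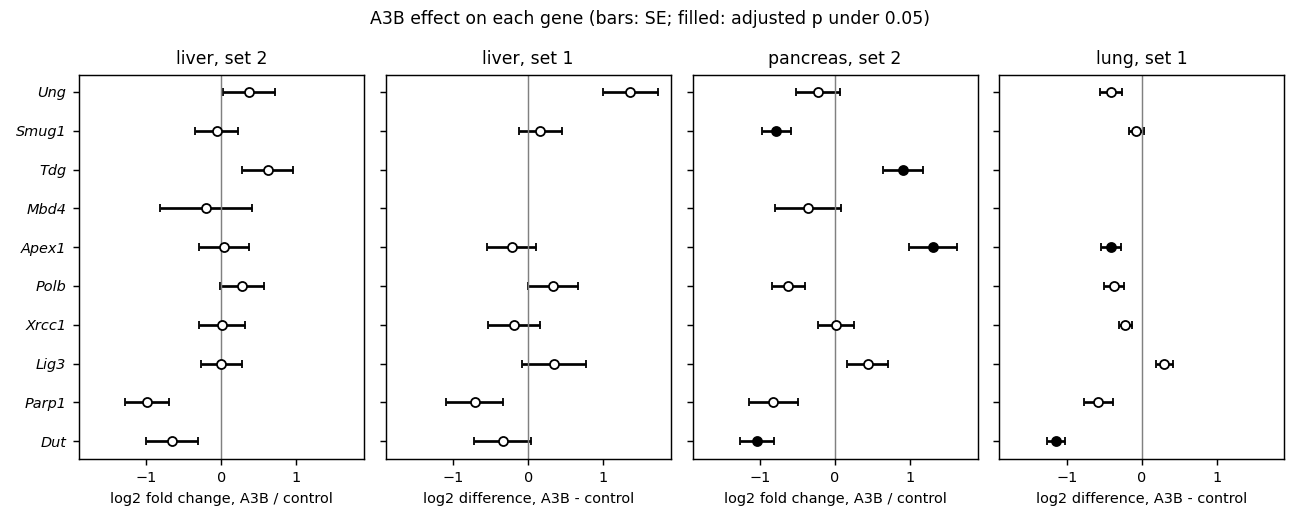
Log2 fold change (set 2) or log2 difference (set 1) of each gene, A3B against control, in the 4 comparisons, with bars for the SE and filled points for an adjusted p under 0.05. Filled points stand in pancreas for Smug1, Tdg, Apex1 and Dut and in lung for Apex1 and Dut, and Tdg and Mbd4 were not tested in set 1.

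Between liver and lung within set 1 the A3B effect was called as different for 1 of 8 members, a share close to the 10.7% of 13477 genes called. This was *Ung*, with an interaction of 1.77 ± 0.38 on the log2 scale (adjusted p = 0.0175). The median gene had 0.39 in this interaction, and *Ung* stood 1.38 above it. *Ung* was higher in 3 of 3 A3B livers and lower in 3 of 3 A3B lungs than every control of the tissue. The adjusted p was 0.103 without mouse 91, which gave a control liver and a control lung, and 0.0524 without mouse 69. With the mouse as a block the difference was 1.58 (adjusted p = 0.0106). For the other 7 members the difference ran from -0.13 ± 0.42 for *Parp1* to 0.81 ± 0.40 for *Dut*, with adjusted p of 0.194 or more. The A3B livers and lungs also differed in days of treatment and in transgene level, and these cannot be told apart from the tissue.

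*Ung* and *Dut* are known to use alternative first exons that give a nuclear and a mitochondrial protein, so the transcripts behind the gene counts were examined in set 2. For *Ung* the bases that each transcript alone codes are shown, ahead of the 795 coding bases both share, with the start codon in capitals (GENCODE M21 transcripts, build GRCm38, plus strand). Ung-201, known as the nuclear form, has 123 such bases at chr5:114130503-114130625, and Ung-202, known as the mitochondrial form, has 90 at chr5:114131229-114131318.
Ung-201: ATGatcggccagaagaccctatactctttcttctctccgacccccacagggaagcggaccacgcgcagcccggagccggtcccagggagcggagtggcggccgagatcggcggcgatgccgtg
Ung-202: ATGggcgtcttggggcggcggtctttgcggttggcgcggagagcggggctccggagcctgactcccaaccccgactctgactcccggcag

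In livers Ung-202 held 39.4% of the *Ung* TPM in controls and 40.7% in A3B mice. In pancreases it held 7.96% in controls and 24.9% in A3B mice, where its estimated counts were 10 and 18 in controls and 124 to 211 in A3B mice. These counts are not scaled, and the A3B counts were all above both controls. With counts scaled by their totals 35.8% of all transcripts were called higher in A3B pancreases. Its log2 fold change was 2.002 ± 0.60 with an adjusted p of 0.0502 across all transcripts. Ung-203, a shorter coding transcript, held 65.5% of the TPM in control pancreases and 31.3% in A3B pancreases, with counts of 81 and 103 in controls and 133 to 214 in A3B mice. Its log2 fold change was -0.82 ± 0.46 (adjusted p = 0.252). Ung-201 had 0 and 73 counts in controls and 69 to 199 in A3B pancreases, which overlap. Ung-204, also annotated as coding, had 0 counts in both control pancreases and 5 to 44 in A3B pancreases (adjusted p = 0.0369). Reads that fit several transcripts were divided among them by kallisto, and that uncertainty was not carried into the test.

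**Figure D5:**
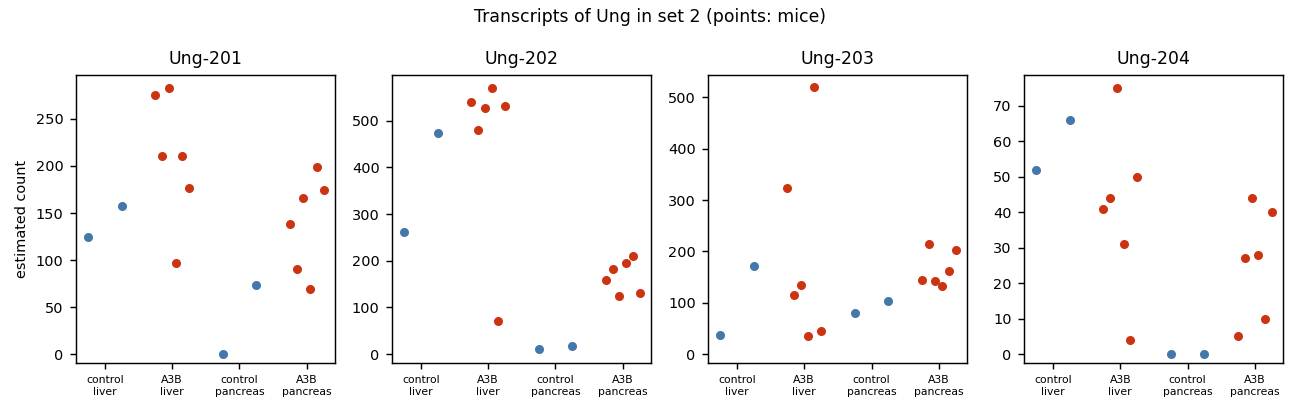
Estimated counts of the Ung transcripts that hold at least 10% of the gene's TPM in some group of set 2 (vertical axis, linear, its own range in each panel), with 1 point per mouse. In pancreas Ung-202 lies at 10 and 18 in controls and at 124 to 211 in A3B mice, while in liver control and A3B points overlap for each transcript.

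For *Dut* the shared part is 470 coding bases. Dut-202, known as the mitochondrial form, has 130 coding bases of its own at chr2:125247272-125247401, and Dut-201, known as the nuclear form, has 16 at chr2:125247748-125247763, shown with the start codon in capitals.
Dut-202: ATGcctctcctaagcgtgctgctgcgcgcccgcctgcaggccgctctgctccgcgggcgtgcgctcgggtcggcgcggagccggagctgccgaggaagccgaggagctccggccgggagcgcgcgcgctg
Dut-201: ATGccctgctcggaag

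Dut-202 held 86.5% to 97.0% of the *Dut* TPM in the 4 groups of set 2, and the gene's values therefore follow it. In livers Dut-201 had 118 and 166 estimated counts in controls and 47 to 73 in A3B mice, and all A3B livers were below both controls. Its log2 fold change was -1.49 ± 0.47 (adjusted p = 0.259), and that of Dut-202 was -0.74 ± 0.42 (adjusted p = 0.501). In pancreases Dut-202 had -0.53 ± 0.27 (adjusted p = 0.213), on a scale where the median transcript had 0.60 and the median gene 0.09.

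Over all members, edgeR called 0 of 48 tested transcripts in liver, where 0.162% of 60653 transcripts were called. At an unadjusted p under 0.05 it was 2 of 48 against 12.5% of all transcripts, and with total counts edgeR also called 0. In pancreas it called 5 of 53, where 16.3% of 68650 were called, and all 5 were higher, as were 12.9% of all transcripts. They included the main transcripts of *Apex1* and *Tdg* but not those of *Smug1* and *Dut*. Apex1-201, with 90.8% of the gene's TPM in control pancreases, had 1.75 ± 0.39 (adjusted p = 0.0161), and Tdg-201, with 51.0%, had 1.81 ± 0.29 (adjusted p = 0.00450). Lig3-211, a coding transcript, had 144 and 269 counts in controls and 1343 to 2861 in A3B mice, and a log2 fold change of 1.63 ± 0.35 (adjusted p = 0.0138), although *Lig3* as a gene was not called. Lig3-205, a retained intron transcript, had 0 counts in both controls and 17 to 105 in A3B mice (adjusted p = 0.0170). The fifth was Ung-204. No *Smug1* transcript was called, and Smug1-201, with 52.3% of the gene's TPM in control pancreases, had -1.07 ± 0.40 (adjusted p = 0.1001). On this scale the median transcript had a log2 fold change of 0.60.

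Other genes of the same processes were described from 4 lists of 75 genes: other base excision repair, long-patch repair and gap filling, the nucleotide pool, and the cell cycle. In set 2 livers 3 of 75 were called, close to the share of 3.66% among all genes. These were *Rrm2b*, the damage-induced subunit of ribonucleotide reductase, at 1.84 ± 0.41 (adjusted p = 0.0415), *Ccne2*, a cyclin of S phase entry, at 3.31 ± 0.62 (adjusted p = 0.0242), and *Tk1*, the thymidine kinase of S phase, which was lower at -1.85 ± 0.39 (adjusted p = 0.0357). None of the 3 overlapped between groups, but the count rests on single livers. It was 0 without A3B liver 137, 1 without A3B liver 44 and 18 without A3B liver 49. In those fits 1.03%, 1.25% and 9.34% of all genes were called. The call of *Tk1* was also lost in 4 of the 6 other settings tried, with adjusted p of 0.0678 to 0.0721, and that of *Rrm2b* in 1, with the Y-linked covariate (adjusted p = 0.0751). Those 18 genes without A3B liver 49 were 4 higher and 14 lower, and the median of the cell cycle list moved from 0.61 to -1.79 without that liver. Of the base excision repair and long-patch lists edgeR called 0 genes, with 3 of 18 and 3 of 19 at an unadjusted p under 0.05, and DESeq2 called 10 genes over the 4 lists.

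The livers of set 1 gave 7 of 59 tested, where 7.93% of all genes were called, and *Rrm2b*, *Ccne2* and *Tk1* were again among them. *Rrm2b* was at 0.495 to 1.19 TPM in controls and 3.54 to 5.32 TPM in A3B livers, with a log2 difference of 1.54 ± 0.30 (adjusted p = 0.0339). *Ccne2* had 2.33 ± 0.39 (adjusted p = 0.0250) and *Tk1* -2.14 ± 0.41 (adjusted p = 0.0339). *Rrm2* and *Mcm4* were also higher, *Poll*, a repair polymerase, and *Nudt1*, which removes oxidised nucleotides, were lower, and with no filter on low values limma called 0 of the genes in the 4 lists. Without control liver 91, control liver 92 or A3B liver 23 the number called was also 0, where 0.00862%, 0.0775% and 0.476% of all genes were called. Of the 6 fits that leave out 1 liver *Rrm2* and *Mcm4* held their call in 2 and *Nudt1* in 1.

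In the pancreas 22 of 75 were called, 15 higher and 7 lower, which is no larger a share than the 31.9% of all genes, and without control pancreas 45 it was 12. The cell cycle list held 8 of the higher genes among its 20 and no lower one, where 17.0% of all genes were called higher. Of these, *Mcm3* had 2.59 ± 0.37, *Ccne2* 2.26 ± 0.37 and *Mcm4* 1.89 ± 0.32. *Mcm3*, a subunit of the replicative helicase, was at 0.632 and 1.92 TPM in controls and 9.71 to 27.2 TPM in A3B pancreases. Of the long-patch list, *Lig1*, the replicative ligase, had 2.65 ± 0.32 (adjusted p = 0.000347), from 0.498 and 1.22 TPM to 15.3 to 22.1 TPM, and held its call without each pancreas in turn. *Pold3* was also higher, but held its call in 1 of 8 such fits, with adjusted p up to 0.149, whereas *Rpa3* and *Pole4* were lower. Of the other repair genes *Hmces* and *Parg* were higher and *Poll* and *Nthl1* lower, and of the nucleotide pool *Samhd1*, *Cda* and *Dck* were higher and *Dctpp1*, *Dtymk* and *Itpa* lower. *Nthl1* held its call in 3 of these 8 fits (adjusted p up to 0.163) and *Dck* in 2 of 8 (up to 0.177). Without control pancreas 45 no nucleotide pool gene was called higher and no other repair gene lower, and without A3B pancreases 44 and 137 together no nucleotide pool gene was called higher either. As with *Smug1* and *Dut*, all 7 lower genes turned positive with total counts, and none of them lay below the controls in TPM.

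In the lung all 22 genes called, of 64 tested, were lower, where 36.8% of all genes were called and 20.8% were called lower. The number was 13 without A3B lung 69 or 70 and 14 without control lung 91. They were 7 of 13 other repair genes, 7 of 18 long-patch genes, 6 of 15 nucleotide pool genes and 2 of 18 cell cycle genes. Single lungs moved these numbers: the other repair genes fell to 2 without A3B lung 70, 3 without A3B lung 69 and 4 without A3B lung 74 or control lung 91, and the long-patch genes to 4 without A3B lung 69 or control lung 91. The nucleotide pool genes numbered 4 or 5 without 1 lung, and the cell cycle genes numbered 6 without control lung 87 and 2 without any other. *Dtymk*, the thymidylate kinase, was at 8.93 to 11.5 TPM in controls and 4.63 to 5.27 TPM in A3B lungs, with -0.87 ± 0.12 (adjusted p = 0.00475). *Nudt1* had -1.03 ± 0.15, *Tyms*, the thymidylate synthase, -0.82 ± 0.15, *Pole2* -0.98 ± 0.14, *Rpa3* -1.21 ± 0.24, *Rfc2* -0.59 ± 0.11 and *E2f1* -0.93 ± 0.14. Among the repair genes *Poll* had -0.67 ± 0.13 and *Ogg1*, the glycosylase for oxidised guanine, -0.46 ± 0.10. The medians of the 4 lists lay between -0.36 and -0.28, against -0.06 for all genes.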

How the data were processed

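RNA-seq of 28 mouse samples was used. For set 2 (16 libraries) the authors deposited kallisto estimated counts and TPM per transcript, without further normalization. For set 1 (12 libraries) the authors deposited TPM per gene, computed from counts over STAR alignments to mm10. No counts or depths of set 1 were used here, so its depth is unknown. In set 2, 97.8% of 119414 transcripts matched GENCODE M21 (GRCm38), and 0.225% to 1.46% of the counts per library fell on the others and were left out. The estimated counts of a gene's transcripts were added up, then rounded. From set 1, 4 rows were left out because 2 names were repeated.

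Set 2 was tested with the edgeR 4.0.16 quasi-likelihood F test (robust, filterByExpr, TMM) and set 1 with limma 3.58.1 (trend and robust) on log2(TPM + 1) for genes averaging 1 TPM or more, in R 4.3.3, with Benjamini-Hochberg adjustment over all genes and a threshold of 0.05. The SE in edgeR is the absolute log2 fold change divided by the square root of F. Each tissue was fitted alone and interactions over both tissues of a set, and no test crossed the sets. Alternatives were total counts, library sizes without the 10 most abundant genes, DESeq2 1.42.0, limma on TPM, no filter on low values, a pseudocount of 0.1, median-of-ratios scaling, a Y-linked covariate, a block for the mouse and leaving out each sample. The scripts were tested on simulated data. No 2 libraries of a set 2 group were alike within counting noise, and set 1, without counts, was not checked for this.

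The samples with the same mouse number came from the same animal, which pairs liver with pancreas. The correlation of their deviations ran from -0.00444 to 0.279 over 7 mice. Mice 70 and 91 also gave both liver and lung in set 1, where the consensus correlation within a mouse was 0.543. With the mouse as a block, the interaction gave 0 members in set 2 and 1 in set 1, as without it. In those fits 8.12% and 19.3% of all genes were called.

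Genes were named by a fixed rule: all 10 members, transcripts with at least 10% of a member's TPM in a group, and up to 3 genes per list and direction called with the smallest p. *Alb*, *Sftpc* and *Ms4a1* were named outside this rule, as tissue or cell markers, after their values were seen. The single values of 1 gene that falls under the rule are not reported here. The members and the lists were chosen with earlier results of these data known. Figures were drawn with matplotlib 3.10.9.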

Additional observations from a re-analysis of the deposited data

Results flagged for a closer look

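The A3B effect on *Ung* differed between liver and lung of set 1 by 1.77 on the log2 scale (limma interaction, adjusted p = 0.0175), and the test of this difference itself is what brings it here. Among all genes 10.7% were called in this interaction, the median gene had 0.39, and *Ung* stood 1.38 above it. All 3 A3B livers lay above the 3 control livers and all 3 A3B lungs below the 3 control lungs. Leaving out 1 mouse at a time gave differences from 1.46 to 2.05, and the adjusted p passed 0.05 in 8 of 10 cases, the exceptions being mouse 91 (0.103) and mouse 69 (0.0524). In set 2 the liver value of *Ung* was 0.37 ± 0.34 and was not called. Single samples were compared with their group by Dixon's ratio of gap to range in the groups of 6, for 20 combinations of gene and group per scale. On log2 CPM none stood apart. In TPM 2 did, where chance gives about 1 in 20: *Mbd4* in A3B liver 49, the highest at 2.01 TPM with a ratio of 0.704, and *Tdg* in A3B pancreas 137, the lowest at 9.47 TPM with a ratio of 0.655.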

How the results depend on the processing

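In every comparison between A3B and control the values below are log2 fold changes or differences, and the cause of each shift was not tested. With 2 controls in set 2, single controls decide calls, and set 1 carries no counts. Numbers of members called changed as follows. In set 2 livers DESeq2 called 1, where it called 13.1% of all genes. In pancreas total counts called 9 and limma on TPM 10, against 71.5% and 85.0% of all genes, and in lung limma without trend and robust settings called 1, against 36.8%. For pancreas minus liver total counts called 6 and DESeq2 1, against 40.5% and 19.7% of all genes, and for the pancreas transcripts total counts called 13 of 53, against 36.3% of all transcripts. Leaving out 1 sample gave 2 to 5 members in pancreas, 1 to 3 in lung, 0 to 1 for liver minus lung and 0 to 1 for pancreas minus liver. For the 4 other lists, set 2 livers gave 5 with total counts and 10 with DESeq2, pancreas gave 71 with total counts, 43 without the 10 most abundant genes and 69 with limma on TPM, and set 1 livers gave 0 with no filter, where 0.282% of all genes were called. Sizes without the 10 most abundant genes called 50.3% of all genes in pancreas, and total counts 6.44% in set 2 livers. Leaving out 1 sample gave 0 to 18 in set 2 livers, 12 to 23 in pancreas, 0 to 9 in set 1 livers and 13 to 21 in lung.

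The following turned sign. In set 2 livers total counts gave *Smug1* 0.40, *Mbd4* 0.31 and *Lig3* 0.44, DESeq2 gave *Apex1* -0.039 and *Xrcc1* -0.069, sizes without the 10 top genes gave *Smug1* 0.32, *Mbd4* 0.21 and *Lig3* 0.35, no filter gave *Xrcc1* -0.0018, limma on TPM gave *Smug1* 0.0070 and *Lig3* 0.45, and the Y-linked covariate gave *Mbd4* 0.057 and *Xrcc1* -0.16. In pancreas total counts gave *Ung* 1.99, *Smug1* 1.44, *Mbd4* 1.62, *Polb* 1.68, *Parp1* 1.52, *Dut* 1.25, *Poll* 1.18, *Nthl1* 1.20, *Rpa3* 0.69, *Pole4* 1.25, *Dctpp1* 0.45, *Dtymk* 0.77 and *Itpa* 1.53. Sizes without the 10 top genes gave *Ung* 0.98, *Smug1* 0.43, *Mbd4* 0.62, *Polb* 0.66, *Parp1* 0.50, *Dut* 0.23, *Poll* 0.15, *Nthl1* 0.19, *Pole4* 0.24 and *Itpa* 0.52. Limma on TPM gave *Ung* 1.43, *Smug1* 1.25, *Mbd4* 0.84, *Polb* 1.59, *Parp1* 1.17, *Dut* 1.17, *Poll* 0.89, *Nthl1* 0.68, *Rpa3* 0.74, *Pole4* 1.48, *Dctpp1* 0.45, *Dtymk* 0.68 and *Itpa* 1.48, and DESeq2 gave *Xrcc1* -0.027. In set 1 livers median-of-ratios scaling gave *Smug1* -0.094, *Polb* -0.10 and *Lig3* -0.047. For pancreas minus liver total counts gave *Ung* 1.14, *Smug1* 1.04, *Polb* 0.93 and *Dut* 1.44, and DESeq2 gave *Mbd4* -0.062. For liver minus lung the mouse as a replicate block gave *Parp1* 0.072, and it changed no call.

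Leaving out 1 sample turned the sign of some members that were not called, whose values then ran over these ranges. In set 2 livers they were -0.14 to 0.10 for *Apex1*, -0.15 to 0.0044 for *Lig3*, -0.58 to 0.0096 for *Mbd4*, -0.027 to 0.45 for *Polb*, -0.17 to 0.95 for *Ung* and -0.15 to 0.031 for *Xrcc1*. In pancreas they were -0.96 to 0.79 for *Mbd4* and -0.12 to 0.20 for *Xrcc1*, and in set 1 livers -0.46 to 0.047 for *Xrcc1*. For liver minus lung they were -0.024 to 0.36 for *Apex1*, -0.16 to 0.45 for *Lig3*, -0.32 to 0.087 for *Parp1* and -0.24 to 0.27 for *Xrcc1*. For pancreas minus liver they were -0.92 to 1.44 for *Mbd4*, -1.16 to 0.12 for *Ung* and -0.020 to 0.40 for *Xrcc1*.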
